A study of Mus musculus with 32 samples.

Results

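RNA polymerase II (Pol II) occupancy over genes was compared between mouse kidney and mouse liver, each as frozen and as formalin-fixed, paraffin-embedded (FFPE) tissue. The genes described are those with a log2 level of at least 3 in at least 2 of the 4 kidney and liver profiles, which kept 20480 of the 27179 genes in the deposited table. The series holds 32 libraries of 4 organs (kidney, liver, brain and heart), with 2 Pol II libraries and 2 input libraries for each organ and preservation. The antibody recognized the C-terminal domain of Pol II. Chromatin of flash-frozen cores was fixed for 30 min in 1% formaldehyde, whereas FFPE tissue had been fixed in 10% formalin, was cleared of paraffin and was extracted by heating (95 °C, 20 min), so each organ's frozen and FFPE profiles also differ in how chromatin was made. The groups used are kidney (frozen and FFPE) against liver (frozen and FFPE), and kidney with liver against brain and heart (each frozen and FFPE). The labels name no treatment of the mice. Strain, sex, age and the number of mice are not given in the labels, and an organ piece holds all of its cell types. In such bulk tissue, fewer cells of a type and less Pol II per cell cannot be told apart.

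Kidney and liver are both epithelial organs of metabolism. They are the main sites of gluconeogenesis in the body, and both take up, oxidize and conjugate small molecules. The proximal tubule of the kidney recovers phosphate, sugars, amino acids and proteins from the filtrate, and the loop of Henle, distal tubule and collecting duct then adjust salt and water. Hepatocytes secrete most plasma proteins, make bile acids and run the complete urea cycle. Both cell types use the nuclear factor HNF4A, while PAX2 and PAX8 mark the kidney lineage and FOXA factors the liver lineage.

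The deposited table has 1 column for each organ and preservation, called a profile here, so kidney and liver have 2 profiles each. Reads in genes numbered 1720986 in frozen kidney, 1458181 in FFPE kidney, 2178329 in frozen liver and 864816 in FFPE liver, and 923888 to 1818524 in the brain and heart profiles. A log2 level of 3 stood for 14.8 reads in frozen kidney, 10.8 in FFPE kidney, 14.5 in frozen liver and 6.96 in FFPE liver, so FFPE liver is the least precise. Mitochondrial genes took 7.77% of the reads in frozen kidney and 19.2% in FFPE kidney, against 10.1% in frozen liver and 11.8% in FFPE liver. The 1485 olfactory and vomeronasal receptor genes, which are silent in these organs, had median log2 levels of 2.31 in frozen kidney and 1.96 in FFPE kidney, against 1.79 in frozen liver and 2.27 in FFPE liver; 258 of them were tested and none was called in either direction. Levels are per gene and not per length, so they are compared between profiles of a gene and not between genes.

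Kidney carried more Pol II than liver on genes of tubular transport and of kidney identity, and less on genes of plasma proteins, lipoproteins, the urea cycle, bile acids and drug oxidation. Differences are kidney minus liver on the log2 scale with standard errors (SE) from limma, n = 2 profiles against 2, and a gene is called at a Benjamini-Hochberg adjusted p under 0.05 over all genes tested. By this rule 410 genes (2.0%) were higher in kidney and 642 (3.13%) were lower, and 19428 were not called. All 1052 called genes had the same sign in frozen and in FFPE tissue. The call itself favours this, since it uses the mean of both differences and an SE that grows as they disagree. Of the genes called, 21 higher ones passed the level filter only through kidney and 28 lower ones only through liver, so that these had to differ. In the lists described further on, 1 member each of proximal tubule transport, proximal tubule endocytosis, loop of Henle and kidney factors passed only through kidney. Only through liver passed 2 plasma protein genes and 1 each of the coagulation, P450, fatty acid oxidation, conjugation and epithelial junction lists. limma without the trend called 64 higher and 102 lower, and list counts fell with it, for example to 4 of the proximal tubule transport genes and 8 of the plasma protein genes described further on. With profiles scaled to the silent receptor genes, 230 genes were higher and 639 lower, and the median of all tested genes then lay at -0.11 instead of 0.01; with quantile normalization 660 were higher and 638 lower. The counts rested on single profiles: leaving out frozen kidney gave 53 higher and 150 lower genes, leaving out FFPE kidney 109 and 326, leaving out frozen liver 313 and 199, and leaving out FFPE liver 774 and 1264. No gene called in the fit of all profiles changed sign in any of these. All of these fits draw on the same 8 profiles, so a kept sign is not a separate check. Large differences were more frequent on the liver side, with 102 called genes at least 2 log2 units higher in kidney and 262 at least 2 units lower; past 4 units the counts were 3 and 30.

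**Figure D1:**
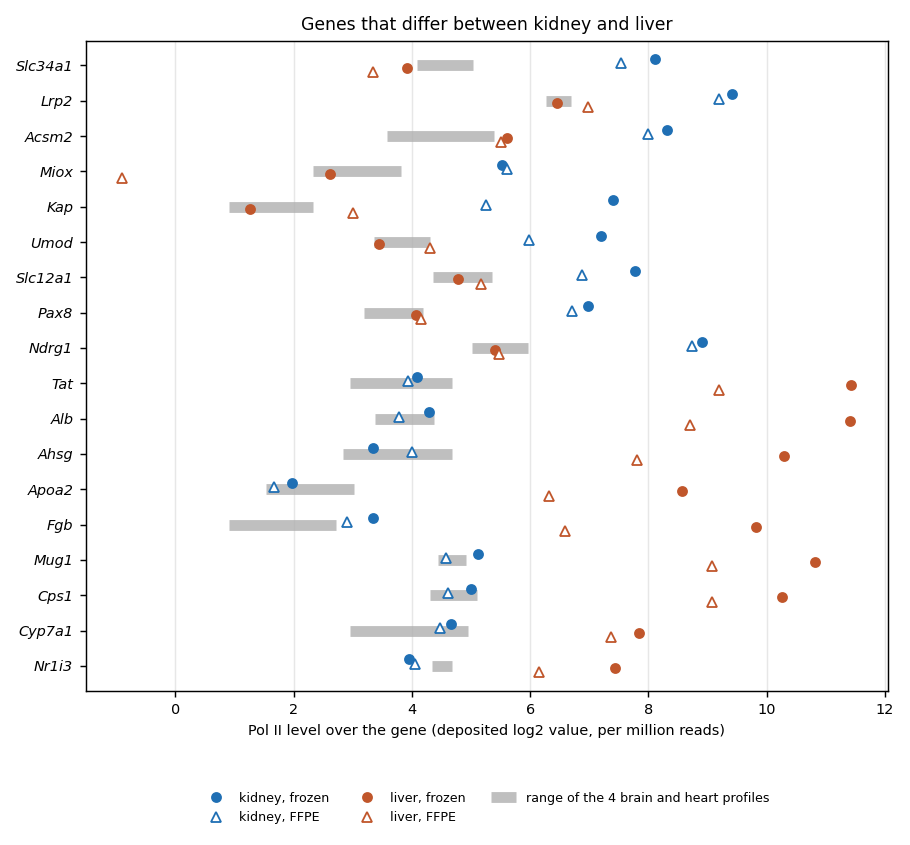
Deposited log2 Pol II level (x axis) of 18 genes (rows) in the kidney profiles (blue) and the liver profiles (orange), frozen as filled circles and FFPE as open triangles; grey bars span the 4 brain and heart profiles. Slc34a1 to Ndrg1 lie higher in both kidney profiles, and Tat to Nr1i3 lie higher in both liver profiles, with kidney close to the grey bar.

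The 3 genes that mark the cells, Slc34a1 for proximal tubule, Alb for hepatocytes and Pck1 for both, behaved differently from one another. Slc34a1 (chromosome 13, 55399622 to 55414695, mm10) encodes the sodium-phosphate cotransporter of the proximal tubule brush border. Its log2 level was 8.12 in frozen and 7.55 in FFPE kidney, against 3.92 in frozen and 3.35 in FFPE liver, a difference of 4.20 ± 0.34 (adjusted p = 3.25e-07). Alb (chromosome 5, 90460870 to 90476602) encodes serum albumin. Its level was 4.29 and 3.79 in frozen and FFPE kidney, against 11.41 and 8.71 in frozen and FFPE liver, a difference of -6.02 ± 0.53 (adjusted p = 9.02e-07). Kidney lay at the level of brain and heart for Alb, with a difference of 0.12 ± 0.46 from their mean (adjusted p = 0.952). Pck1 (chromosome 2, 173153073 to 173159274) encodes cytosolic phosphoenolpyruvate carboxykinase, the committed step of gluconeogenesis. It stood at 9.46 and 7.88 in frozen and FFPE kidney, at 11.78 and 8.88 in frozen and FFPE liver, and between 3.81 and 4.46 in the brain and heart profiles. Both organs lay far above brain and heart, by 4.44 ± 0.38 for kidney and 6.10 ± 0.38 for liver, while frozen kidney lay above FFPE liver and so the kidney and liver profiles overlapped. The kidney minus liver difference of Pck1 was -1.66 ± 0.44 (adjusted p = 0.0313); this call was lost without frozen kidney, FFPE kidney or frozen liver, when only the 4 kidney and liver profiles were fitted, with no filter, with limma without the trend and with no preservation term.

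The promoters of these genes and of G6pc, the catalytic subunit of glucose-6-phosphatase, the last step of gluconeogenesis, are shown because the comparison turns on them. Each runs 5′ to 3′ on the plus strand across the start given by RefSeq on GRCm38.p6, the build named mm10. Capitals mark the TATA box letters TATAAA on the gene's strand; the HNF4 core AAGTCCA was searched on both strands.
Slc34a1, chr13:55399398-55399697: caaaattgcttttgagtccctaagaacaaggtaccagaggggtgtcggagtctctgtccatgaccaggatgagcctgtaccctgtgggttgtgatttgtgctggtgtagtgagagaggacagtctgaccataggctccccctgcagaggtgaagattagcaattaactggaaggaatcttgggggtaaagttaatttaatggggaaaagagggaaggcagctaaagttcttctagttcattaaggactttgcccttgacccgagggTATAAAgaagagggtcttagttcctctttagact
Alb, chr5:90460620-90460919: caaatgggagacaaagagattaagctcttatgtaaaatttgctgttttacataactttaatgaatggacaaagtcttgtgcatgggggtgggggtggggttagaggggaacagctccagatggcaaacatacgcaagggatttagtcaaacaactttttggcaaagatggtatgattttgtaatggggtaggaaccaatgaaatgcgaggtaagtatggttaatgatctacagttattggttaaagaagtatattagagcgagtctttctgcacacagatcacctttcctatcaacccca
Pck1, chr2:173152823-173153122: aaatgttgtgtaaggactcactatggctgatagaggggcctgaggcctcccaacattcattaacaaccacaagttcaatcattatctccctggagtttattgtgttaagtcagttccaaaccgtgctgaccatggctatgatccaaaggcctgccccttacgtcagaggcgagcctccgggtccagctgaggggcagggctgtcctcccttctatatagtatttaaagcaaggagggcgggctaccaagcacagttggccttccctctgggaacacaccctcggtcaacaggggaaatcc
G6pc, chr11:101367466-101367765: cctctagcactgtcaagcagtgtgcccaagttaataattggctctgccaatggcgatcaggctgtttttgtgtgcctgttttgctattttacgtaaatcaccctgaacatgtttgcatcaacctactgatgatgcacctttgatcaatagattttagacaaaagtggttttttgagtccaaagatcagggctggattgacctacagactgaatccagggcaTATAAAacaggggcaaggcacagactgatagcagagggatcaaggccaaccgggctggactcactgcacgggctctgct
Counted from the start that RefSeq's promoter window uses, TATAAA begins at -29 in G6pc and at 17 in Slc34a1; for Slc34a1 that start is 55399648, 26 bases inside the gene's first position given above. TATAAA does not lie on the gene's strand in the Alb and Pck1 windows, and no HNF4 core lies in the 4 windows. Only these exact letters were sought, so their absence does not show that a promoter lacks a TATA element or an HNF4 site. Nor does the TATAAA match in Slc34a1, which lies after the start, show that it has a TATA element. TATAAA on the gene's strand was in 17.6% of the 74 promoters available for the 100 genes with the largest kidney excess among those called, in 28.9% of 76 for the 100 largest liver excesses, and in 14.1% of 78 for the 100 shared genes highest against brain and heart. Over all tested genes with a promoter in the table the share was 7.24%, and over all 27025 promoters 9.77%. The HNF4 core was in 2.70%, 13.2% and 10.3% of the promoters of these 3 sets in the same order, against 4.46% of all tested and 4.70% of all promoters. Over all genes called higher in kidney, all called lower and all shared genes the shares were nearer to these backgrounds, at 8.91%, 11.7% and 9.97% for TATAAA and 4.62%, 7.79% and 7.62% for the HNF4 core. The windows also differed in composition: the median count of CG pairs was 9.5, 4 and 4.5 in the 3 sets of 100, against 18 over all tested genes. Near-identical gene copies count as separate promoters. These are shares of letters in windows and were not tested.

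The largest kidney excesses, those of Miox, Slc34a1 and Kap, lay on genes of the proximal tubule. Not all of the leading genes were high in kidney relative to other organs. The 10 largest belonged to Miox, Slc34a1, Kap, Lbx1, Pfn3, Timp3, 1700028J19Rik, Ndrg1, Plau and Ldc1. Miox, myo-inositol oxygenase of the proximal tubule, stood at 5.53 in frozen and 5.60 in FFPE kidney, against 2.61 in frozen and -0.90 in FFPE liver, where it had 0 reads (difference 4.71 ± 0.85). Kap, the kidney androgen regulated protein of the mouse proximal tubule, stood at 7.40 and 5.25 in frozen and FFPE kidney, against 1.26 and 3.01 in liver (4.19 ± 0.83, adjusted p = 0.00387). Pfn3 adjoins Slc34a1 and overlaps its end, so its reads cannot be told apart from those of Slc34a1. Timp3, an inhibitor of matrix metalloproteinases that lies inside Syn3, stood at 8.91 and 8.45 in kidney, against 5.67 and 4.66 in liver (3.52 ± 0.28, adjusted p = 3.25e-07). Ndrg1, a stress and differentiation gene, stood at 8.90 and 8.73 in kidney, against 5.40 and 5.48 in liver (3.38 ± 0.27, adjusted p = 3.25e-07). Plau, the urokinase plasminogen activator, stood at 8.18 and 6.78 in kidney, against 4.39 and 3.86 in liver (3.35 ± 0.35, adjusted p = 8.32e-06). For Lbx1, a factor of muscle precursors and spinal cord, the difference of 3.76 ± 0.83 lay in a low liver. Its level was 3.84 and 4.34 in kidney, 1.55 and -0.90 (0 reads) in liver, and 3.18 to 4.46 in brain and heart, and kidney minus brain and heart was 0.42 ± 0.71 (adjusted p = 0.876). Slc34a1, Timp3, Ndrg1 and Plau stayed called under every alternative run, whereas Miox, Kap, Lbx1, Pfn3, 1700028J19Rik and Ldc1 lost the call without frozen kidney, and each of these except Ldc1 also without at least 1 of the other 3 profiles of the 2 organs. None of these 6 was tested when a level of 3 was asked of all 4 profiles, and all but Kap had passed the filter only through kidney.

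Of the 20 proximal tubule transport genes, 8 were higher in kidney and none lower, with a median difference of 1.20, against 2.0% higher and a median of 0.01 over all tested genes. The called members carry phosphate, organic anions, sodium and amino acids. Slc5a12, a lactate transporter, stood at 6.87 and 7.03 in frozen and FFPE kidney, against 3.65 and 4.77 in liver (2.74 ± 0.36, adjusted p = 0.000105). Slc22a12, the urate transporter URAT1, differed by 2.44 ± 0.41, although its brain profiles (6.36 and 5.64) were close to kidney (6.64 and 6.08) and its liver profiles lay at 3.38 and 4.46. Slc9a3, the sodium-proton exchanger NHE3, differed by 2.40 ± 0.45, and Slc6a19, the neutral amino acid transporter B0AT1, by 2.32 ± 0.43. Slc17a3, an organic anion transporter, had 7.24 and 5.83 in kidney and 6.93 and 5.79 in liver (0.18 ± 0.45, 95% interval -0.75 to 1.11), and both organs stood above brain and heart (4.15 to 5.35). Slc5a2, the glucose transporter SGLT2, was not called, with 5.45 and 5.10 in kidney and 4.91 and 4.46 in liver (0.59 on the log2 scale). The count of 8 fell to 2 without frozen kidney, and Slc22a12, Slc9a3 and Slc6a19 were then not called; it was 12 without FFPE liver.

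Among the 17 genes of proximal tubule endocytosis and brush border, 9 were higher in kidney and none lower (median 1.40). Of all tested genes 2.0% were higher. Lrp2, the endocytic receptor megalin, stood at 9.41 in frozen and 9.20 in FFPE kidney, against 6.45 and 6.98 in liver (2.59 ± 0.27, adjusted p = 8.32e-06). Cubn, its partner cubilin, differed by 1.40 (7.46 and 7.42 in kidney, 5.81 and 6.28 in liver). Acsm2, a medium-chain acyl-CoA synthetase, stood at 8.32 and 7.99 in kidney, against 5.61 and 5.51 in liver (2.60 ± 0.34, adjusted p = 7.88e-05), with liver itself 1.09 ± 0.29 above brain and heart. Anpep, aminopeptidase N, did not separate the organs, with 5.99 and 5.76 in kidney and 6.57 and 5.61 in liver (-0.22 ± 0.39, 95% interval -1.04 to 0.61). Megalin and Acsm2 stayed called under every alternative run. Without frozen kidney 2 members were called, without FFPE kidney 5 and without frozen liver 5; Cubn was lost without either kidney profile and when profiles were scaled to the silent receptor genes.

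Farther along the nephron, 8 of the 16 loop of Henle and distal tubule genes were higher in kidney and none lower (15 tested, median 1.36). The share of all tested genes called higher was 2.0%. Umod, uromodulin of the thick ascending limb, stood at 7.19 and 5.99 in frozen and FFPE kidney, against 3.45 and 4.31 in liver (2.71 ± 0.47, adjusted p = 0.00123). Egf, the epidermal growth factor precursor, differed by 2.38 ± 0.33 and Slc12a1, the NKCC2 cotransporter, by 2.35 ± 0.38. Wnk4, a kinase that regulates the distal cotransporter, was not called (0.77 ± 0.27, adjusted p = 0.125). The count was 1 without frozen kidney, 4 without FFPE kidney and 5 without frozen liver; of the genes named, Egf was called in each of these, and Umod and Slc12a1 were lost without frozen kidney.

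Collecting duct and podocyte genes separated the organs less clearly. Of 15 collecting duct genes, 2 were higher in kidney, namely Scnn1b, a subunit of the epithelial sodium channel (2.05 ± 0.47), and Aqp2, the vasopressin-regulated water channel (1.89 ± 0.50). The median was 0.94, and of all tested genes 2.0% were higher and 3.13% lower. Aqp2 had 4.57 and 4.91 in kidney and 3.14 and 2.56 in liver, but 3.91 to 4.88 in brain and heart, so frozen kidney lay within the range of those organs and FFPE kidney just above it. Elf5, an ETS factor of secretory epithelium, was the single member lower in kidney, with 4.57 and 4.98 in kidney against 7.32 and 6.22 in liver (-2.0 ± 0.47, adjusted p = 0.0128). These 3 calls were lost without frozen kidney and without FFPE kidney. None of the 10 podocyte genes was higher in kidney and 1 was lower. Synpo, synaptopodin, had 7.17 and 7.24 in kidney and 6.90 and 6.81 in liver (0.35 ± 0.25), and Nphs1, nephrin, had 5.12 and 4.98 in kidney and 4.57 and 4.98 in liver. Called tubule markers other than Elf5 were thus higher in the profiles labelled kidney, while many tubule markers were not called, and the podocyte list did not set kidney apart from liver at this depth.

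**Figure D2:**
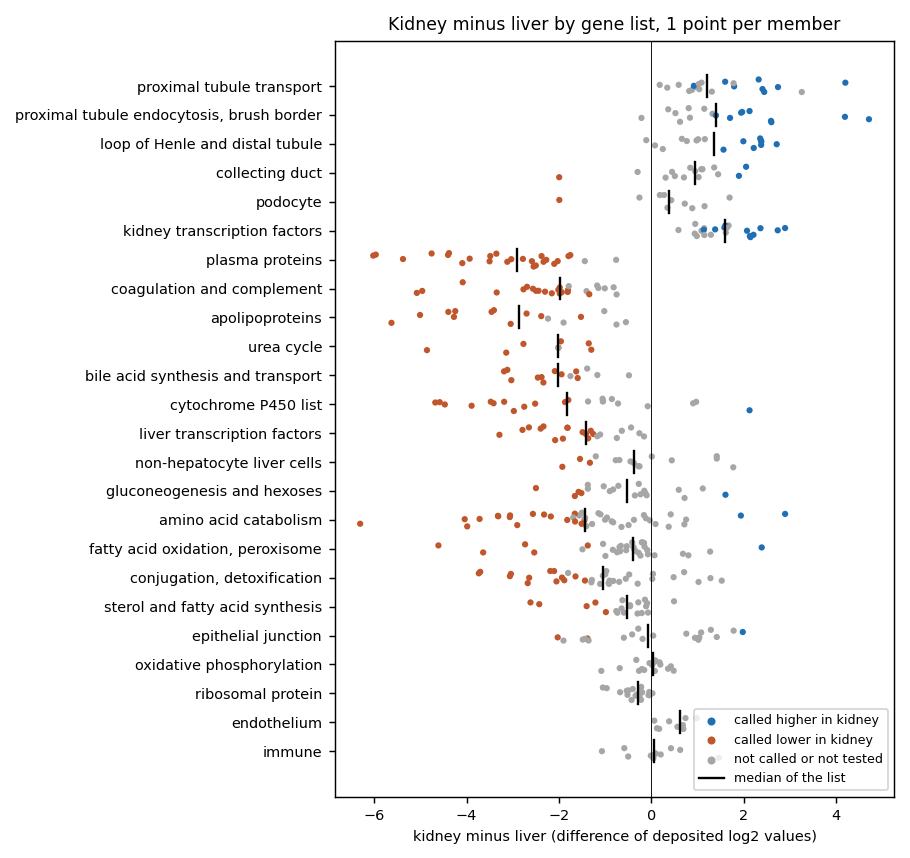
Kidney minus liver difference of log2 levels (x axis) for each member of 24 gene lists (rows), 1 point per gene, blue where called higher in kidney, orange where called lower and grey otherwise; black ticks are medians. The tubule and kidney factor lists lie to the right with medians up to 1.59, the hepatocyte lists to the left with medians down to -2.91, and the oxidative phosphorylation and ribosomal protein lists near 0 with no called member.

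The largest differences in either direction lay on genes higher in liver, most of them for secreted proteins. The 10 genes with the largest liver excess were Tat, Alb, Serpina3k, Apoa2, Mup3, Ahsg, Mug1, Fgb, Apoa5 and Fga. Tat (chromosome 8, 109986078 to 109999804), tyrosine aminotransferase, stood at 4.08 and 3.93 in frozen and FFPE kidney, against 11.44 and 9.19 in liver (-6.30 ± 0.54, adjusted p = 6.54e-07). Ahsg, the plasma glycoprotein fetuin-A, stood at 3.35 and 4.00 in kidney, against 10.29 and 7.81 in liver (-5.38 ± 0.58, adjusted p = 1.12e-05). Mug1, murinoglobulin, stood at 5.12 and 4.57 in kidney, against 10.81 and 9.07 in liver (-5.10 ± 0.36, adjusted p = 1.21e-07). In these 3 genes kidney lay near the brain and heart mean, at -0.11 ± 0.47 for Tat, 0.15 ± 0.50 for Ahsg and 0.18 ± 0.32 for Mug1. Mup3, a major urinary protein, has near-identical copies among which reads can be split, so its difference of -5.51 ± 1.11 is uncertain; its call was lost without either kidney profile or frozen liver and with limma without the trend, while the other 9 were called under every alternative that tested them. Serpina3k, Apoa2 and Mup3 passed the filter only through liver, and these and Fgb were not tested when a level of 3 was asked of all 4 profiles.

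Of the 26 plasma protein genes, 24 were lower in kidney and none higher, against 3.13% lower over all tested genes, with a median difference of -2.91. Trf, transferrin, differed by -4.40 ± 0.48 and Rbp4, the retinol carrier, by -4.76 ± 0.75. Afp, alpha-fetoprotein, and Ambp, alpha-1-microglobulin, were not called (-0.76 ± 0.46 and -1.44 ± 0.61). The list's median was 0.16 for kidney minus brain and heart, and 2.95 for liver minus brain and heart. Of 25 coagulation and complement genes, 18 were lower in kidney (median -1.99), among them the fibrinogen chains Fga (-4.96 ± 0.55), Fgb (-5.08 ± 0.63) and Fgg (-4.09 ± 0.64), Plg, plasminogen (-3.35 ± 0.42), and F10, coagulation factor X (-2.77 ± 0.54). Cfb, complement factor B, had 5.64 and 6.54 in kidney and 7.73 and 6.09 in liver and was not called (-0.82 ± 0.42). Of 16 apolipoprotein and lipoprotein genes, 11 were lower in kidney (median -2.88), led by Apoa2 (1.97 and 1.67 in kidney, 8.58 and 6.32 in liver) and Apoa5 (3.99 and 4.00, against 10.21 and 7.80). Of these 16, 6 passed the filter only through liver, Apoa2 among them, and 7 were called lower when a level of 3 was asked of all 4 profiles. Without frozen kidney 13 plasma protein, 6 coagulation and complement, and 5 lipoprotein genes were called lower, and without frozen liver 13, 8 and 5, in the same order. Rbp4 was lost without FFPE kidney, Fgg without frozen kidney and F10 without frozen kidney or frozen liver.

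Nitrogen and bile acid metabolism were also set lower in kidney. This held for 7 of 8 urea cycle genes and 10 of 14 bile acid genes, against 3.13% of all tested genes. Cps1, carbamoyl phosphate synthetase, which feeds ammonia into the urea cycle, stood at 5.00 and 4.61 in kidney, against 10.25 and 9.08 in liver (-4.86 ± 0.36, adjusted p = 1.21e-07). Arg1, arginase, differed by -3.14 ± 0.49 and Nags, which makes the activator of Cps1, by -2.77 ± 0.42. Ass1, argininosuccinate synthase of a middle step, was also lower in kidney than in liver but stood above brain and heart in both organs. Its level was 5.99 and 5.83 in kidney, 8.39 and 7.35 in liver, and 3.34 to 3.78 in brain and heart. Kidney thus lay 2.36 ± 0.30 above brain and heart (adjusted p = 0.000129) and yet 1.96 ± 0.35 below liver. In the kidney the middle steps of the cycle, Ass1 among them, are known for making arginine. Cyp7a1, the rate-limiting enzyme of bile acid synthesis, stood at 4.66 and 4.48 in kidney, against 7.84 and 7.36 in liver (-3.03 ± 0.44, adjusted p = 0.000246), and Cyp8b1, sterol 12-alpha-hydroxylase, differed by -3.12 ± 0.57. Cyp27a1, which oxidizes the sterol side chain and is active in both organs, was not called (-1.17 ± 0.38, adjusted p = 0.0833), and kidney was 1.44 ± 0.33 above brain and heart. Leaving out frozen kidney gave a urea cycle count of 3 and a bile acid count of 5, leaving out FFPE kidney 4 and 5, and leaving out frozen liver 3 and 3; Cps1, Arg1, Nags and Cyp7a1 were called in each of these, Ass1 was lost without either frozen profile, and Cyp8b1 without FFPE kidney or frozen liver.

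In a list of 22 cytochrome P450 genes chosen for liver, 12 were lower in kidney and 1 was higher, against 3.13% and 2.0% of all tested genes. Cyp2d10 and Cyp3a11, drug-oxidizing enzymes from families of close copies, differed by -4.68 ± 0.51 and -4.58 ± 0.50. Cyp4b1, which oxidizes fatty acids and xenobiotics, was the member higher in kidney (7.15 and 6.56, against 4.69 and 4.77 in liver; 2.12 ± 0.38, adjusted p = 0.00175), a call that was lost without frozen kidney. Cyp2j5, an epoxygenase of both organs, was not called (-0.86 ± 0.42) and stood above brain and heart in all 4 profiles (6.32 and 5.62 in kidney, 7.64 and 6.02 in liver, 3.71 to 4.73 in brain and heart). The count of 12 fell to 6 without frozen kidney, to 6 without frozen liver and to 7 when a level of 3 was asked of all 4 profiles. The choice of list matters here. Over all 98 genes with a cytochrome P450 symbol, 18 were lower in kidney, 4 were higher and 76 were not called (median -0.44).

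What the organs share was taken from their mean against the mean of brain and heart. By that contrast 1011 genes (4.94%) were higher in kidney and liver, but liver alone can carry it, as for plasma proteins. A gene was therefore counted as shared only where all 4 kidney and liver profiles also lay above every brain and heart profile, which held for 453 genes (2.21%). Between kidney and liver, 375 of the 453 were not called, 71 were lower in kidney and 7 were higher. Of all 20480 tested genes, 19428 were not called, 3.13% were lower and 2.0% higher. In 93 of the 453 the whole 95% interval of the difference lay within 1 log2 unit, against 5344 of all 20480 tested genes (26.1%). By these counts shared genes were not more alike between kidney and liver than tested genes in general. The median excess of the shared genes over brain and heart was 0.99 in kidney and 1.5 in liver. The count of shared genes was 253 without frozen brain, 283 without FFPE kidney and 904 without the FFPE heart and FFPE liver profiles.

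**Figure D3:**
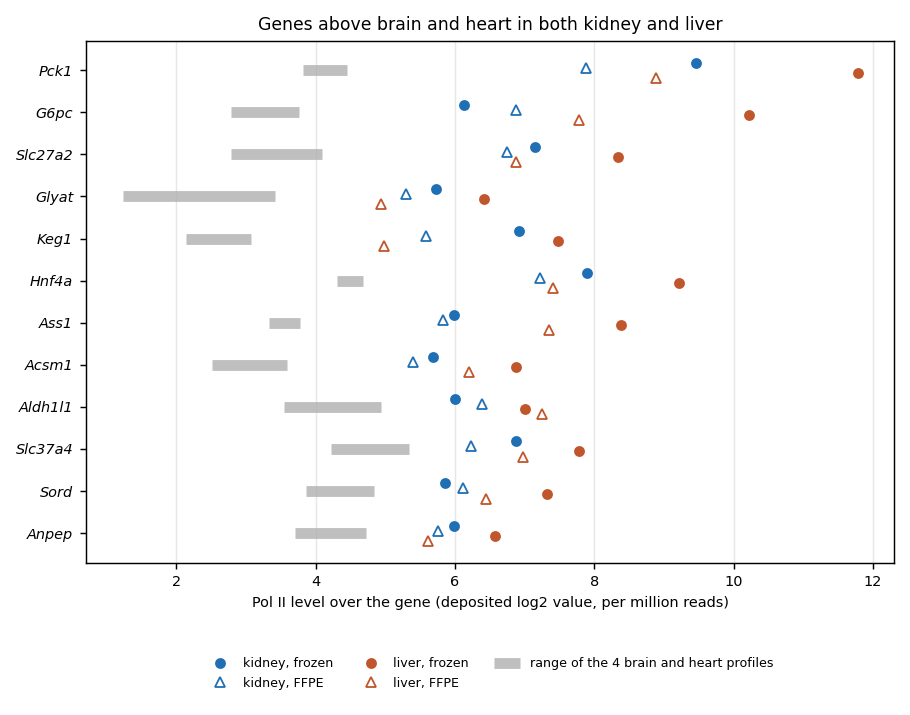
Deposited log2 Pol II level (x axis) of 12 genes above brain and heart in all 4 kidney and liver profiles (rows), with kidney in blue, liver in orange, frozen as filled circles and FFPE as open triangles; grey bars span the 4 brain and heart profiles. Every kidney and liver point lies right of its grey bar; for G6pc and Ass1 both kidney points lie left of both liver points, and for Keg1 and Glyat the organs interleave.

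Gluconeogenesis led the shared genes. The 10 largest mean excesses over brain and heart among shared genes belonged to Pck1 (5.27 ± 0.31), a gene without symbol (entrez100504264, 4.72 ± 1.03), G6pc (4.50 ± 0.35), Fgb, Slc27a2, Glyat, Keg1, Hnf4a, Ass1 and Fgg. G6pc stood at 6.12 and 6.87 in frozen and FFPE kidney, 10.22 and 7.78 in liver, and 2.79 to 3.76 in brain and heart. Slc27a2, a very long chain acyl-CoA synthetase, stood at 7.14 and 6.75 in kidney, 8.34 and 6.88 in liver, and 2.79 to 4.10 in brain and heart (3.64 ± 0.27 above them, adjusted p = 1.14e-07). Its kidney minus liver difference of -0.66 ± 0.38 was not called (95% interval -1.46 to 0.14). Glyat and Keg1, neighbouring glycine N-acyltransferase genes on chromosome 19, were 3.63 ± 0.47 and 3.55 ± 0.35 above brain and heart. Keg1 had 6.92 and 5.58 in kidney and 7.48 and 4.98 in liver (0.02 ± 0.49 between the organs, 95% interval -1.0 to 1.04). Fgb and Fgg entered through liver: Fgb had 3.35 and 2.90 in kidney, 9.81 and 6.59 in liver, and at most 2.72 in brain and heart, and kidney minus brain and heart was 1.22 ± 0.55 (adjusted p = 0.321). The gene without symbol likewise stood at 0.87 and 1.67 in kidney and at 6.79 and 4.93 in liver.

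Of 20 genes of gluconeogenesis and hexose metabolism, 13 were higher in kidney and liver than in brain and heart and 11 were shared. The shares among all tested genes were 4.94% and 2.21%. Slc37a4, the glucose 6-phosphate carrier that serves G6pc, stood at 6.88 and 6.23 in kidney and 7.78 and 6.98 in liver (-0.83 ± 0.37, not called). Fbp1, fructose-1,6-bisphosphatase, was 2.41 ± 0.37 above brain and heart, and Slc2a2, the transporter GLUT2, 1.64 ± 0.32; neither was called between kidney and liver. Within the list, 1 gene was higher in kidney and 4 were lower, against 2.0% and 3.13% of all tested genes, and the median difference was -0.54. The higher one was Ppargc1a, a coactivator of mitochondrial and gluconeogenic genes (7.20 and 7.38 in kidney, 5.74 and 5.64 in liver; 1.60 ± 0.28, adjusted p = 0.0016), and the lower ones included G6pc (-2.50 ± 0.49) and Pck1. The 4 lower calls fell to 0 without frozen kidney, to 0 without frozen liver and to 1 without FFPE kidney, but were 9 without FFPE liver, 8 with voom weights and 11 without the FFPE heart and FFPE liver profiles; Ppargc1a was lost without FFPE kidney.

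Amino acid breakdown was split between shared and liver genes. Of 43 members, 29 were higher in kidney and liver than in brain and heart and 12 were shared, against 4.94% and 2.21% of all tested genes. Between the organs 17 were lower in kidney than in liver and 2 were higher (median -1.43), against 3.13% and 2.0%. Mat1a, which makes S-adenosylmethionine in hepatocytes, stood at 3.94 and 3.63 in kidney, against 8.28 and 7.38 in liver (-4.04 ± 0.37, adjusted p = 1.82e-06). Tdo2, tryptophan dioxygenase, differed by -3.99 ± 0.43, and Hpd, which acts after Tat in tyrosine breakdown, by -3.32 ± 0.36. Dao, D-amino acid oxidase, was higher in kidney (5.58 and 5.16, against 3.05 and 1.91 in liver; 2.89 ± 0.48, adjusted p = 0.00083), but brain held 5.68 and 4.87, and liver lay 2.12 ± 0.41 below brain and heart. The count of 17 was 10 without frozen kidney, 10 without FFPE kidney and 11 without frozen liver; Mat1a, Tdo2, Hpd and Dao were called in each of these fits. With voom weights it was 27.

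Of 32 fatty acid oxidation and peroxisomal genes (31 tested), 17 were higher in kidney and liver than in brain and heart and 12 were shared. Between the organs 1 was higher and 5 were lower in kidney than in liver (median -0.40). Among all tested genes these shares were 4.94%, 2.21%, 2.0% and 3.13%, in the same order. Cpt1a, the carnitine transferase that admits fatty acids to mitochondria, stood at 6.81 and 6.67 in kidney and 7.52 and 7.06 in liver (-0.55 ± 0.28, 95% interval -1.13 to 0.04). Oxct1, which starts ketone body use, stood at 5.64 and 5.27 in kidney, against 2.95 and 3.19 in liver (2.39 ± 0.40, adjusted p = 0.000845). For Oxct1 kidney was at the brain and heart level (0.30 ± 0.34 apart), and liver lay 2.08 ± 0.34 below it. Cat, catalase, differed by -2.73 ± 0.36. The 5 lower calls were 2 without frozen kidney, 3 without FFPE kidney, 2 without frozen liver and 10 without FFPE liver; Oxct1 was lost without frozen kidney.

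Of 35 conjugation and detoxification genes, 23 were higher in kidney and liver than in brain and heart, 10 were shared, and 13 were lower in kidney (34 tested, median -1.05). The shares among all tested genes were 4.94%, 2.21% and 3.13% in the same order. Ces3a, a hepatic carboxylesterase, differed by -3.74 ± 0.55, whereas Ephx2, soluble epoxide hydrolase, had 5.90 and 5.37 in kidney and 7.02 and 6.09 in liver and was not called (-0.92 ± 0.33). The 13 lower calls were 6 without frozen kidney and 6 without frozen liver. Of 20 sterol and fatty acid synthesis genes, 5 were lower in kidney, against 3.13% of all tested genes. Among the 5 were Insig1 (-2.62 ± 0.44) and Insig2 (-2.43 ± 0.43), which hold back sterol synthesis, and Fasn, fatty acid synthase (-1.21 ± 0.26). All 3 named calls were lost without frozen kidney.

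Of 20 epithelial junction genes, 11 were higher in kidney and liver than in brain and heart, 5 were shared, 1 was higher and 2 were lower in kidney. Among all tested genes the shares were 4.94%, 2.21%, 2.0% and 3.13% in the same order. The list is too short for 1 higher and 2 lower calls to set it apart from those shares. Cdh1, E-cadherin, was shared, with 6.30 and 5.92 in kidney, 5.88 and 4.83 in liver, and 3.91 to 4.42 in brain and heart. Cdh16, kidney-specific cadherin, was higher in kidney (1.98 ± 0.36), and Cldn1, a tight junction claudin (-2.03 ± 0.43), and Cdh2, N-cadherin (-1.38 ± 0.32), were lower. Without frozen kidney Cdh16 and Cdh2 lost the call, and without FFPE kidney or frozen liver Cldn1 and Cdh2 did.

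Transcription factors showed the same arrangement of shared and separate genes. Of 22 kidney factors, 11 were higher in kidney and none lower (median 1.59), against 2.0% and 3.13% of all tested genes. Pax8 stood at 6.97 and 6.71 in kidney, against 4.07 and 4.15 in liver (2.73 ± 0.42, adjusted p = 0.000376), and Pax2 at 6.41 and 6.40, against 3.71 and 4.39 (2.36 ± 0.39). Irx1, an Iroquois factor of the nephron, differed by 2.89 ± 0.45. Tfcp2l1, a factor of collecting duct and distal tubule, stood at 8.32 and 8.39 in kidney, against 6.28 and 6.18 in liver (2.13 ± 0.31). Of 21 liver factors, 14 were lower in kidney and none higher (median -1.42). Hhex, needed for the liver bud, stood at 3.84 and 3.93 in kidney, against 8.57 and 5.79 in liver (-3.29 ± 0.59, adjusted p = 0.00174), Nr1i3, the xenobiotic receptor CAR, differed by -2.79 ± 0.41, Foxa3 by -2.65 ± 0.49, and Cebpa, a factor of hepatocyte metabolism, by -1.81 ± 0.41. Without frozen kidney, 2 kidney factors and 1 liver factor were called, without FFPE kidney 6 and 7, and without frozen liver 8 and 2. With voom weights 17 kidney factors were called. Pax8, Tfcp2l1 and Nr1i3 were called in each of these fits; Pax2 and Irx1 were lost without frozen kidney, and Hhex, Foxa3 and Cebpa without either frozen profile.

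The hepatocyte nuclear factor Hnf4a was not called between the organs. Hnf4a (chromosome 2, 163506811 to 163572907, overlapping Hnf4aos) stood at 7.89 and 7.22 in frozen and FFPE kidney, 9.21 and 7.40 in liver, and 4.31 to 4.69 in brain and heart. It was 3.40 ± 0.26 above brain and heart (adjusted p = 1.18e-07), and kidney minus liver was -0.75 ± 0.37 (95% interval -1.53 to 0.03). The interval does not show that the factor is at equal levels in kidney and liver.

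**Figure D4:**
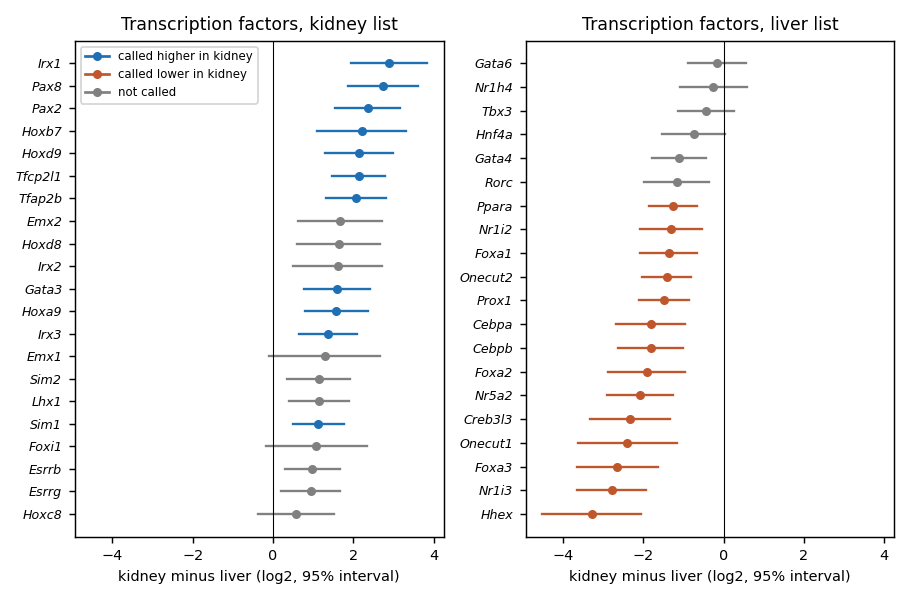
Kidney minus liver difference with its 95% interval (x axis, log2) for transcription factors (rows) of the kidney list (left panel) and the liver list (right panel); blue points were called higher in kidney, orange lower and grey not called. All 21 kidney-list estimates shown lie right of 0 and all 20 liver-list estimates shown left of it, with Hnf4a among the uncalled genes.

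Hox genes, which mark position along the body axis and were grouped after their values were seen, were higher in kidney in 14 of 39 members and lower in none (38 tested, median 1.54). Of all tested genes 2.0% were higher and 3.13% lower. Of the 38 tested, 2 passed the level filter only through kidney. By paralogue number, 5 of 15 genes of groups 1 to 5, 8 of 18 of groups 6 to 11 and 1 of 6 of groups 12 and 13 were called. Hoxb9 stood at 5.99 and 6.20 in kidney, against 3.14 and 4.83 in liver (2.11 ± 0.48), Hoxa10 at 6.80 and 6.42, against 5.06 and 4.39 (1.89 ± 0.34), and Hoxb7 at 4.88 and 5.64, against 2.61 and 3.49 (2.21 ± 0.53). All 3 lost the call without frozen kidney.

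Some called genes lay side by side on the genome. Counting neighbours in the annotation among tested genes, 7 runs of at least 3 adjacent genes higher in kidney held 21 genes, and 19 runs of genes lower in kidney held 68. Runs on the kidney side were no longer than 3 and included Hoxb9, Hoxb8 and Hoxb7 (chromosome 11, 96271330 to 96290163) and Rhbdd1, Col4a4 and Col4a3 (chromosome 1, 82316457 to 82722059). Col4a3, a chain of the glomerular basement membrane collagen, stood at 7.81 and 8.04 in kidney, against 5.77 and 5.73 in liver (2.18 ± 0.27, adjusted p = 4.87e-05). On the liver side the longest run held 7 Mup genes (chromosome 4, 60418046 to 61228252), followed by 6 Serpina genes with the alpha-1-antitrypsin copies (chromosome 12, 103728156 to 103989968). Shorter ones were Ahsg with Dnajb11, Fetub and Hrg on chromosome 16, and Fgg, Fga and Fgb (chromosome 3, 83007724 to 83049863). Members of the Mup, Serpina1 and Cyp2c clusters are near-identical copies, so adjacent calls there are not separate measurements.

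None of the 16 oxidative phosphorylation genes and none of the 20 ribosomal protein genes (19 tested) was called, with medians of 0.04 and -0.29, against 2.0% called higher and 3.13% lower over all tested genes. Of 16 clock genes, 1 was called, Nr1d1, the repressor REV-ERB alpha (6.44 and 6.66 in kidney, 5.80 and 5.41 in liver; 0.95 ± 0.27, adjusted p = 0.0486), which lost the call without any 1 of the 8 profiles. Of 22 heat shock and immediate early genes, 3 were lower in kidney, against 3.13% of all tested genes, namely Zfp36 (-1.97 ± 0.36), Ier2 (-1.56 ± 0.38) and Jun (-1.18 ± 0.31), all of them lost without frozen kidney or frozen liver. The summed levels of this list, in reads scaled to depth (CPM), were 3468 and 1640 in frozen and FFPE kidney, against 7033 and 1686 in frozen and FFPE liver, so the excess of liver lay in the frozen profiles.

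Other cell types were followed by their markers. None of 10 endothelial genes was called (median 0.62), with summed levels of 693 and 668 CPM in frozen and FFPE kidney, against 521 and 466 in liver. Of 11 fibroblast and smooth muscle genes, 1 was higher in kidney, Pdgfra, a fibroblast receptor (1.18 ± 0.29), with sums of 518 and 504 in kidney, against 376 and 412 in liver. None of 11 immune genes (8 tested) was called, with sums of 302 and 214, against 224 and 273. None of 8 exocrine pancreas genes (7 tested) and none of 7 adrenal cortex genes (6 tested) was called. Since 2.0% of all tested genes were called higher and 3.13% lower, lists this short can hold no call at those shares. An empty list therefore does not show that a cell type is absent or equal in the organs. Cidec (adipocyte list, -1.88 ± 0.50) and Pln (cardiomyocyte list, -1.63 ± 0.35) were lower and Eno2 (neuron list, 1.32 ± 0.37) higher in kidney, 1 gene in each list, and these calls and that of Pdgfra were lost without frozen kidney. Of 15 genes of liver cells other than hepatocytes, 3 were lower in kidney: Clec4g (-1.93 ± 0.53) and Stab2 (-1.33 ± 0.28) of sinusoidal endothelium and Sox9 of bile ducts (-1.55 ± 0.34). Each of these 3 lost the call without frozen kidney or frozen liver. Of the 14 members tested, 11 were not called. The median of this list was -0.38, with members from -1.93 to 1.77, so the 3 named genes do not stand for the list. The globin gene Hbb-bs had 2 and 1 reads in frozen and FFPE kidney and 0 in both liver profiles. The part of these cells in the differences above was not tested.

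**Figure D5:**
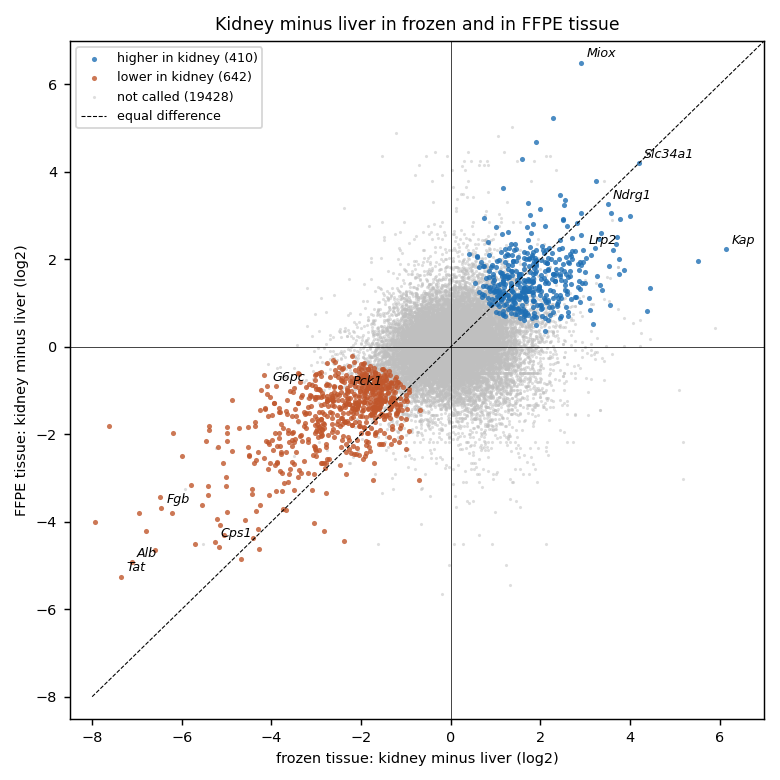
Kidney minus liver difference in frozen tissue (x axis, log2) against that in FFPE tissue (y axis, log2) for the 20480 tested genes, 1 point per gene, blue for the 410 called higher in kidney, orange for the 642 called lower and grey for the rest; the dashed line marks equal differences. Orange points lie mostly above the dashed line, nearer to 0 in FFPE tissue, and blue points lie on both sides of it.

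Frozen and FFPE tissue gave 2 comparisons that share no profile, each of 1 kidney profile with 1 liver profile and so without a test. Across the 20480 genes their differences correlated with Pearson's r = 0.327, and with r = 0.679 over the 3386 genes with a mean log2 level of at least 6; genes are not independent replicates. In FFPE tissue 9.05% of tested genes were more than 1 log2 unit higher in kidney and 9.11% more than 1 unit lower, and in frozen tissue 13% and 12.2%. Among the 200 genes with the lowest frozen differences, the median was -2.02 in FFPE and -3.75 in frozen tissue, and 195 kept the sign. Among the 200 with the highest frozen differences, the median was 0.95 in FFPE and 2.84 in frozen tissue, and 147 kept the sign. Chosen by FFPE values instead, the 200 lowest had medians of -2.89 in FFPE and -1.94 in frozen tissue (137 kept the sign), and the 200 highest 2.57 in FFPE and 0.80 in frozen tissue (158 kept it). Genes chosen in one preservation are larger in it by that choice. Of the called genes lower in kidney, 556 of 642 differed less in FFPE tissue (median -1.38) than in frozen tissue (median -2.26); of those higher in kidney, 256 of 410 did (1.48 and 1.73). Since the calls used both preservations, these are descriptions.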

How the data were processed

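The deposited table holds log2 values for 8 Pol II profiles (4 organs, frozen and FFPE) and 27179 genes. The submitters' processing notes name Bowtie2, featureCounts and limma with the build mm10. Tool versions, the part of a gene that was counted and the strand setting were not found in the labels, so overlapping genes cannot be separated. The log2 values deposited by the authors lie on the scale of limma's voom function, with 0.5 reads added: taking a column's lowest value as 0 reads, every value became a whole number of reads (relative tolerance 1e-06). Columns name organ and preservation only, so a column may be 1 library or 2 combined. With 1 profile for each organ and preservation, SEs and p-values rest on how far organ differences change between frozen and FFPE tissue over the 4 organs. This spread may be technical and is not the variation between replicates of kidney or liver. Input libraries were not used here. Of the rows, 1275 have no symbol, and 25275 genes (93.0%) matched the RefSeq positions on GRCm38.p6.

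limma 3.58.1 in R 4.3.3 (lmFit, contrasts.fit, eBayes with a trend) was fitted to all 8 profiles with organ and preservation as terms, leaving 3 residual degrees of freedom with a prior of 17.1. Brain and heart entered to estimate the spread. p-values were adjusted over the 20480 tested genes (Benjamini-Hochberg, threshold 0.05). Frozen and FFPE differences have 1 profile a side and no test. Python 3.11.15 was used for the summaries, and the fit was tested on simulated data. Genes and lists were chosen with earlier results of these data known. Genes were named by a rule: Pck1, Slc34a1 and Alb; the 10 largest called differences in each direction with the same sign in both preservations; from each list up to 5 called and up to 3 uncalled members; the 10 largest shared genes; members of the shared metabolism lists; and cell type markers. Nphs1, Cubn, Slc12a3, Slc5a2, Tfcp2l1, Cebpa, the Hox genes, Hbb-bs and the genes of the runs beyond this rule were named after their values were seen. Some genes that this rule names are not reported here. Alternatives changed the filter, the scaling, the test, the terms and the profiles included.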

Additional observations from a re-analysis of the deposited data

Results flagged for a closer look

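In several named genes the kidney and liver order turned round between preservations, a difference that was not tested since each has 1 profile a side. Kidney minus liver (log2) was 1.41 in FFPE and -0.73 in frozen tissue for Slc3a1, a subunit of the cystine carrier, 0.91 and -1.38 for Slc2a2, 0.45 and -2.09 for Cfb, 0.44 and -1.16 for Khk, ketohexokinase, and 0.25 and -1.13 for Tbx3, a T-box factor. It was 0.60 in FFPE and -0.56 in frozen tissue for Keg1, 0.36 and -0.69 for Glyat, 0.15 and -0.58 for Anpep, and 1.02 and -1.05 for Hspa8, a constitutive heat shock protein. For Nphs1 it was just below 0 in FFPE (-0.00) and 0.55 in frozen tissue. None of these genes was called.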

How the results depend on the processing

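No paired analysis was possible because the columns carry no replicate numbers, and the planned count model on recovered reads was not run; voom weights on those reads took its place. Counts are genes higher in kidney than liver, genes lower, and shared genes (410, 642 and 453). limma without the trend gave 64, 102 and 176, voom weights 1239 lower, no preservation term 270 and 404, quantile normalization 660 higher, and scaling to the silent receptor genes, added after seeing the data, 230 higher. Leaving out each profile gave 53 to 774 higher, 150 to 1264 lower and 253 to 623 shared; without the FFPE heart and FFPE liver profiles, added likewise, they were 1316, 1997 and 904. With 1 kidney or liver profile left out, the fit takes the remaining one to vary as the other organs do. No call changed sign under any alternative, but all alternatives draw on the same 8 profiles. The 4-profile fit kept 866 of the 1052 calls, and limma without the trend kept 153. FFPE liver, with 864816 reads, limits the precision of genes with few reads. The cause of these movements was not tested.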
